A study of Mus musculus with 13 samples.

Results

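The genes of 9 transcription factors that set or modify macrophage identity, Spi1, Cebpa, Cebpb, Cebpd, Maf, Runx1, Klf4, Batf3 and Zeb2, were followed through their H3K27ac-marked regions. H3K27ac is the acetylation of histone H3 at lysine 27, found at active promoters and enhancers, and it was measured by chromatin immunoprecipitation and sequencing (ChIP-seq) in mouse bone marrow-derived macrophages. A region of the consensus table (mm10 build) was taken as belonging to a gene when it overlapped the gene body, or when the gene was the nearest protein-coding gene within 100 kb. By this rule 58 of 40691 regions belonged to the 9 genes. Of these 58, 52 passed the filter on low values, as did 36621 of all regions, and 6 were too weak to be tested. Regions are numbered along the chromosome within each gene.

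All groups were macrophages of genotype IL10-/-RAG2-/- on the 129S6/SvEvTac strain, grown from marrow precursors for 5 days with M-CSF. They could therefore make no IL-10 of their own, controls included, and the donor mice had no mature T or B cells. Each of 4 groups held 3 libraries from independent macrophage pools. The groups were untreated cells, cells given LPS (bacterial lipopolysaccharide) at 1 ng/mL for 195 min, cells given LPS and IL-10 (1 ng/mL) together for 195 min (continuous IL-10), and cells kept in LPS for the same 195 min to which IL-10 was added for only the final 30 min (late IL-10; the labels leave its dose blank). The questions were what LPS did to H3K27ac at these genes and how IL-10, which restrains inflammatory responses, acted in the presence of LPS.

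As background, macrophage identity rests on the ETS factor PU.1, made by Spi1, which with C/EBP factors and RUNX1 opens and holds the enhancers of myeloid genes. C/EBPβ and C/EBPδ are in addition inducible by inflammatory signals, whereas C/EBPα drives myeloid commitment. c-Maf, KLF4, BATF3 and ZEB2 modify this base towards particular states, such as anti-inflammatory macrophages for c-Maf or conventional dendritic cells for BATF3.

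The deposited values are signal, that is, reads scaled by 1 factor per library, and no value lies below 1 read. The reads recovered over all regions ranged from 5149730 (LPS library 1) to 26922552 (untreated library 3), and exactly 1 read was recorded at 19.7% to 29.9% of regions, depending on the library. Where no library of a group exceeded 3 reads in a region, a fold is given as a bound against 3 reads per region and library, in deposited units only, and a region at this floor is not shown to be free of the mark. In bulk chromatin, fewer cells carrying the mark and less mark per cell cannot be told apart. All 8 macrophage markers examined (Csf1r, Adgre1, Cd68, Itgam, Mpeg1, Fcgr1, Mertk and Cd14) had regions, with a summed signal between 29479 and 49325 per library. Among markers of other cells, Cd3g, Cd8a, Pax5, Mpo, Pdgfra, Gata1 and Hba-a1 had no region. The lists with regions summed to between 274.8 and 1152 for T cells (4 of 6 genes), 1552 and 3246 for B cells (3 of 4), 1836 and 3372 for neutrophils (5 of 6), 2964 and 11005 for dendritic cells (5 of 5), 6095 and 17789 for fibroblasts (4 of 5) and 7.88 and 68.6 for erythroid and mast cells (2 of 4). With LPS, 4 of the 8 macrophage markers were called, Mpeg1, Cd68 and Csf1r lower and Cd14 higher. Of all genes tested, 13.3% were lower and 14.2% higher. None of the 8 was called in the IL-10 comparisons by limma's main fit. With replicate number as a block, 1 was higher for continuous IL-10 against LPS, and 1 higher and 2 lower for late IL-10. Late against continuous IL-10 gave 2 higher and 1 lower. Of all genes the block called 7.34% higher and 10.3% lower, 6.72% and 3.01%, and 9.69% and 7.17%, in the same order. With LPS, Cd3e, Lck, Cd247, Camp, Zbtb46 and Dcn were among the other cells' markers that rose and Elane, Mmp8, Flt3, Siglech, Pdgfrb and Cpa3 among those that fell. Elane, Mmp8 and Cpa3 were called higher with both IL-10 schedules against LPS, with log2 changes between 1.31 and 5.02. Each of these IL-10 calls was lost without at least 2 single libraries, with an adjusted p of up to 0.139. Of the LPS calls of markers, Csf1r was lost without LPS library 1 (adjusted p = 0.0632), Pdgfrb without untreated library 3 or LPS library 1 (up to 0.121), Siglech without untreated library 1 or 2 or LPS library 1 or 2 (up to 0.105), and Cd68 without any untreated library or LPS library 1 or 2 (up to 0.148). The part of other cells in the results below was not tested.

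The RefSeq table of start sites (GRCm38.p6, which is mm10) held entries for 6 of the 9 genes, with 10 start sites in all, and each start site lay inside one of the regions. Of the start-site regions of Cebpa, Cebpb, Runx1 and Batf3, only those of Cebpb and of the distal Runx1 start were called, both with LPS. The 250 bases before the start are shown for these genes and not for Klf4 or Zeb2. The sequences run 5′ to 3′ in the direction of the gene, with matches to the motifs searched in capitals. They are Cebpa (chr7:35119043-35119292, plus strand), Cebpb (chr2:167688665-167688914, plus strand), the distal and proximal starts of Runx1 (chr16:92826075-92826324 and chr16:92697330-92697579, minus strand) and Batf3 (chr1:191098164-191098413, plus strand).
Cebpa: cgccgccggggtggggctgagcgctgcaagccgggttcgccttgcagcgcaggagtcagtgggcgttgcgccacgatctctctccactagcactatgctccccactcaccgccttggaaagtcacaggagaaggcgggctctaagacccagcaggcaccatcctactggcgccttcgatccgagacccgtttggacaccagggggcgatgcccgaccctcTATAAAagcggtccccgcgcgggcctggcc
Cebpb: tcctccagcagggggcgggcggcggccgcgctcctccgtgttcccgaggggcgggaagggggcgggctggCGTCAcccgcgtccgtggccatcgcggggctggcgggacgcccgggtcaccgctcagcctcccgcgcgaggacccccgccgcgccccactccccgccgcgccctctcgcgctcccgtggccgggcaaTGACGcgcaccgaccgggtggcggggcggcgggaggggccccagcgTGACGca
Runx1 distal: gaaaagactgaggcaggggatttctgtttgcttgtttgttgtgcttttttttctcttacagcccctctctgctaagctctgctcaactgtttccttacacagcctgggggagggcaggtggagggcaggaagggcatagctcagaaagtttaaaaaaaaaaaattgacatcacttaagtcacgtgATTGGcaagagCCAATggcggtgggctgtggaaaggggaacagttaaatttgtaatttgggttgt
Runx1 proximal: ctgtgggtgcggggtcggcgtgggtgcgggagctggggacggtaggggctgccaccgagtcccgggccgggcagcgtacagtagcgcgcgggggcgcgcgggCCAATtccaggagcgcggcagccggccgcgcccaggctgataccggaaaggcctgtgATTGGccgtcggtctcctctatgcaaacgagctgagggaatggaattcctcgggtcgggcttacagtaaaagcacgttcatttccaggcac
Batf3: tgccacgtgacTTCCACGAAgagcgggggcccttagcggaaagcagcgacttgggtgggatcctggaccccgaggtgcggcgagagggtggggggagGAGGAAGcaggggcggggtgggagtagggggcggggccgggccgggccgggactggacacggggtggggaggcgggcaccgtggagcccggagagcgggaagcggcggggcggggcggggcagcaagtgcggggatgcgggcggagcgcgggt

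The motifs searched, on both strands, were TTGCNNAA for C/EBP (in 9.56% of 32851 mouse promoters of this length), GAGGAAG for PU.1 (10.6%), TGANTCA for AP-1 (6.75%), TGACG for the core of the cAMP response element (17.8%), TTCNNNGAA for STAT factors (7.02%), the interferon-stimulated response element (2.98%), NF-kB (4.11%), TGNGGT for RUNX (40.1%), CCAAT (33.8%) and TATAAA (12.4%). In Cebpa the capitals mark TATAAA, 30 to 25 bases before the start. In Cebpb they mark the response element core 3 times, beginning 180, 53 and 7 bases before the start, the first on the opposite strand. Each Runx1 promoter held CCAAT once on each strand, 65 and 54 bases before the distal start and 148 and 91 bases before the proximal one. The 2 Runx1 promoters differed in composition, with 2 CpG pairs and 45.6% G and C in the distal one against 27 and 67.6% in the proximal one. Batf3 held the PU.1 letters from 153 and the STAT letters from 239 bases before the start. A match is a description of letters and not a measured binding site.

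Summed over their regions and divided by the length covered, the 9 genes spanned a wide range of H3K27ac. In untreated cells Spi1 was highest at 186 ± 54.1 signal per kb (SD, n = 3), followed by Cebpd (89.2 ± 45.5), Cebpb (83.6 ± 23.5), Maf (77.5 ± 12.1), Zeb2 (69.3 ± 18.5), Cebpa (61.5 ± 22.3), Runx1 (53.3 ± 16.1), Klf4 (38.6 ± 17.1) and Batf3 (37.5 ± 10.2). Spi1 stood above Cebpd by more than either SD, and every other neighbour in this order differed by less. With LPS alone the order was Spi1 (293 ± 53.8), Cebpb (143 ± 29.1), Zeb2 (92.1 ± 44.3), Cebpd (80.2 ± 36.3), Klf4 (55.1 ± 8.43), Maf (45.3 ± 14.2), Cebpa (31.9 ± 20.4), Runx1 (31.9 ± 4.24) and Batf3 (12.6 ± 5.04). Here Spi1, Cebpb and Batf3 were set apart from their neighbours by more than the larger SD, and no neighbouring pair among the 6 genes from Zeb2 to Runx1 was.

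With continuous IL-10, Spi1 (280 ± 18.3 signal per kb) and Cebpb (177 ± 15.0) again led, and Batf3 was lowest at 3.67 ± 2.06. Zeb2 (103 ± 27.6) and Cebpd (77.5 ± 7.78) did not differ beyond their spread, and neither did Maf (39.7 ± 6.66), Cebpa (37.0 ± 12.1) and Runx1 (36.0 ± 4.09), with Klf4 between these sets at 54.4 ± 5.25. With late IL-10 the order ran Spi1 (267 ± 23.6), Cebpb (188 ± 16.6), Cebpd (99.4 ± 33.3), Zeb2 (94.1 ± 41.3), Runx1 (48.7 ± 4.08), Klf4 (41.4 ± 3.29), Cebpa (41.2 ± 16.2), Batf3 (27.3 ± 13.4) and Maf (24.9 ± 6.99). Maf was last here, within the spread of Batf3, and 3 genes stood above it in untreated cells.

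**Figure D1:**
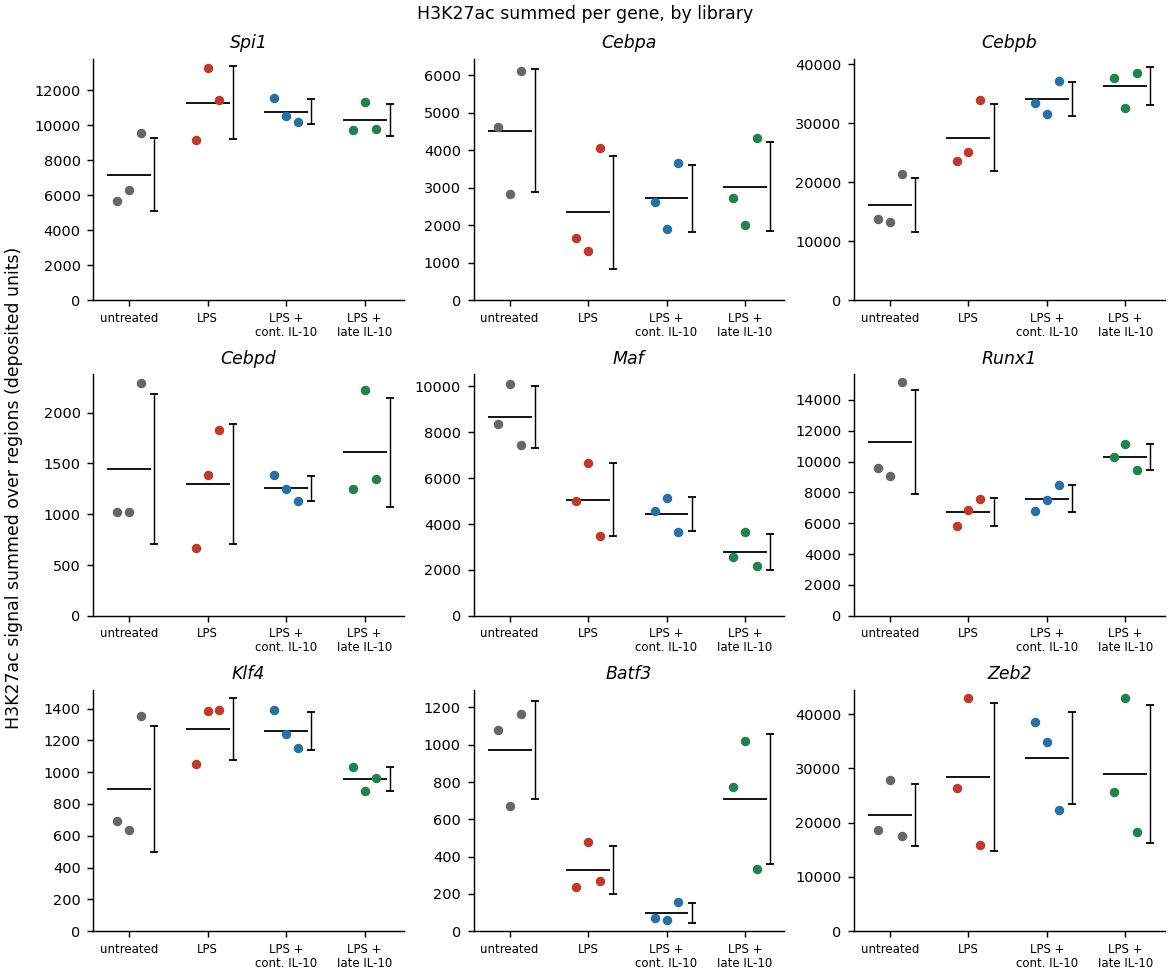
H3K27ac signal summed over the regions of each of the 9 genes, in deposited units on linear axes that start at 0, for each library (points), with the group mean (line) and SD (bar, n = 3). The 3 LPS libraries lie above all untreated libraries for Cebpb and below them for Maf, Runx1 and Batf3, and the 3 continuous IL-10 libraries of Batf3 lie lowest of all groups.

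LPS against untreated cells moved these genes in both directions. Over the gene sums, Spi1 and Cebpb rose (2 of 9, where 14.2% of all 13482 genes tested rose) and Maf, Runx1 and Batf3 fell (3 of 9, where 13.3% of all genes fell). Cebpa, Cebpd, Klf4 and Zeb2 did not pass the test. Over single regions, 6 of the 52 tested rose, or 11.5% against 16.5% of all regions, and 15 fell, or 28.8% against 17.9%. With the replicate block 9 rose and 21 fell, and of all regions 24.1% rose and 24.9% fell. The median log2 change was -0.58 over the 52 regions and -0.06 over all regions. Regions that are high in 1 group only can pass the filter through that group, so these counts describe the 52 regions and are no test of the set.

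**Figure D2:**
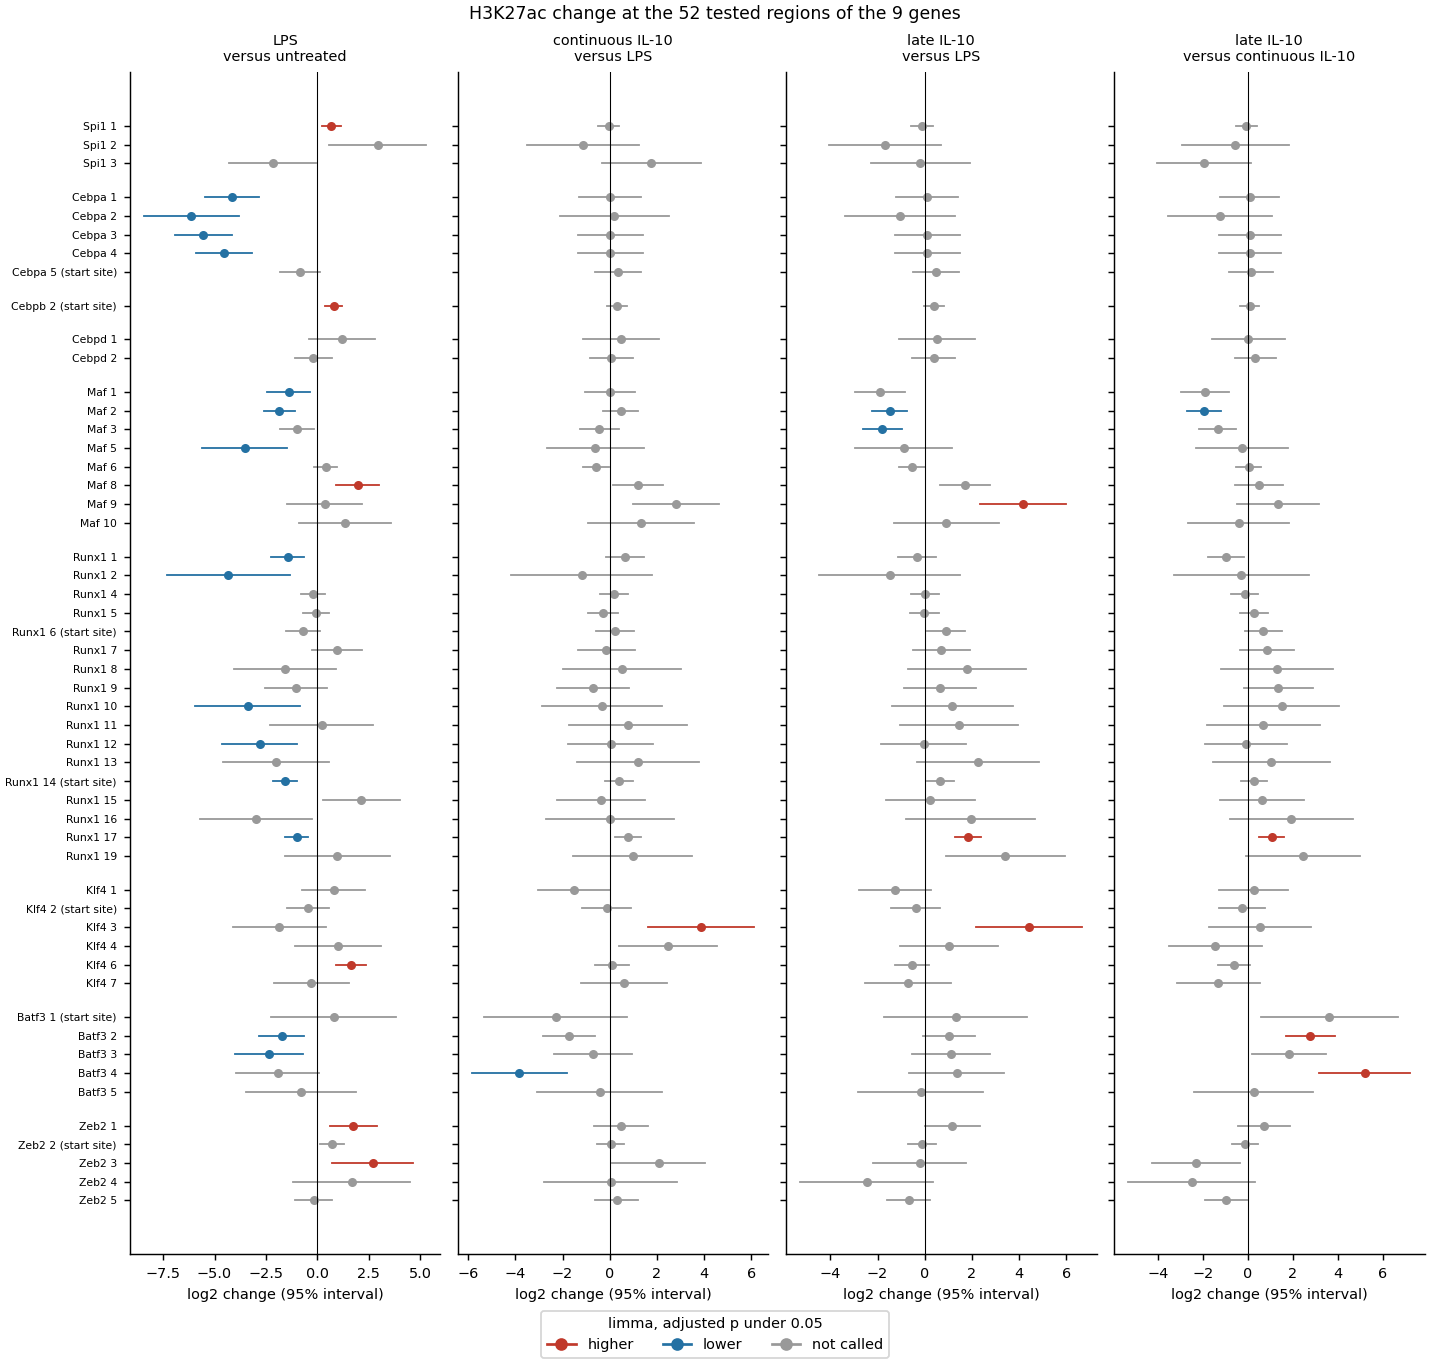
Log2 change of H3K27ac (x axis, with its 95% interval) at each of the 52 tested regions of the 9 genes in the 4 comparisons, coloured by the limma call at an adjusted p under 0.05. In the LPS panel 15 regions are called lower, 4 of them at Cebpa and 6 at Runx1, and 6 are called higher, while the IL-10 panels hold between 2 and 5 calls each.

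All adjusted p-values are Benjamini-Hochberg values over all regions or all genes from limma's test on log2(value + 1), unless edgeR or DESeq2 is named, and log2 changes are on that scale.

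Spi1 encodes PU.1, the ETS factor without which macrophages do not form. Its gene (chr2:91082374-91115759) was overlapped by 3 regions, and region 1 (chr2:91068407-91103361, 35.0 kb, which also overlaps the zinc transporter gene Slc39a13) held 99.6% of the untreated sum. The summed signal was 5668, 6294 and 9547 in untreated libraries 1, 2 and 3 and 9138, 13272 and 11440 in LPS libraries 1, 2 and 3. LPS was higher in every numbered pair, while untreated library 3 and LPS library 1 overlapped. The log2 change was 0.68 (SE 0.22, adjusted p = 0.0350), and for region 1 alone it was 0.68 (SE 0.21, adjusted p = 0.0236). The gene's call was lost without untreated library 1 (adjusted p = 0.154), untreated library 2 (0.121), LPS library 2 (0.128) or continuous IL-10 library 2 (0.0526), and with median centring (0.0842). Without the first 3 of these libraries the call of region 1 was lost as well (adjusted p = 0.113, 0.0861 and 0.0944).

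Further regions over the Spi1 body were weak. Region 2 (chr2:91104400-91106212) read 7.07, 1.26 and 0.42 in untreated libraries and 23.6, 30.2 and 13.4 with LPS, with no overlap, a log2 change of 2.92 (SE 1.10, adjusted p = 0.0553, and 0.0354 when blocked on replicate number). It also passed with median centring (0.0375), with DESeq2 (0.0436) and without any one of 4 libraries, untreated library 1, LPS library 3, continuous IL-10 library 1 and late IL-10 library 3 (lowest adjusted p 0.0349), while leaving out another library raised the adjusted p to as much as 0.185. Region 3 (chr2:91112068-91113799) read 12.02, 34.0 and 31.0 untreated and 1.97, 1.68 and 18.6 with LPS. Its log2 change was -2.18 (SE 0.97, adjusted p = 0.10, with the block 0.0378), and it passed without LPS library 3. LPS libraries 1 and 2 were at 1 read there, and untreated libraries 2 and 3 in region 2. The sizes of both changes depend on that floor. IL-10 left Spi1 without a call. Continuous IL-10 libraries summed to 11553, 10540 and 10199 and late IL-10 libraries to 9744, 11338 and 9787. The log2 changes against LPS were -0.05 (95% interval -0.53 to 0.42) and -0.12 (-0.59 to 0.35).

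Among the C/EBP genes, LPS raised Cebpb and lowered a group of regions before Cebpa. Cebpb encodes C/EBPβ, a factor for inflammatory and interleukin genes. Its gene (chr2:167688915-167690432) lies in region 2 (chr2:167683622-167875302), a domain of 191.7 kb with no other protein-coding gene and 99.97% of the untreated sum. Region 1 (chr2:167679915-167681223), 7.69 kb before the gene, was too weak to be tested. The sum was 13776, 13250 and 21351 in untreated libraries and 23680, 25071 and 34026 with LPS, so that the lowest LPS library lay above the highest untreated one. This was a log2 change of 0.79 (SE 0.21, adjusted p = 0.0125), lost for the gene without untreated library 1 (adjusted p = 0.0614) or 2 (0.0656). The region alone gave 0.79 (SE 0.19, adjusted p = 0.00681) and kept its call without any single library. Cebpb reached its highest values with IL-10, 33492, 31586 and 37260 in continuous and 37647, 32636 and 38605 in late libraries. Each IL-10 library exceeded the LPS library of its number, but LPS library 3 overlapped both groups. The log2 changes against LPS were 0.32 (95% interval -0.13 to 0.77, adjusted p = 0.496) and 0.41 (-0.04 to 0.86, adjusted p = 0.493), not passing limma's test. DESeq2 on recovered reads called the latter (0.50, adjusted p = 0.0280).

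Cebpa encodes C/EBPα, the C/EBP factor of myeloid commitment. The gene (chr7:35119293-35121928) lies within region 5 (chr7:35115982-35172667, 56.7 kb), and 4 regions stand upstream, between 4.56 and 24.9 kb before it. All 4 upstream regions fell with LPS. Region 2 (chr7:35095735-35101229), the strongest, read 378.2, 436.2 and 264.6 in untreated libraries and 1.97, 1.68 and 15.3 with LPS, a log2 change of -6.12 (SE 1.07, adjusted p = 7.81e-04). LPS libraries 1 and 2 were at 1 read there, so the size of this change depends on that floor. Region 3 (chr7:35105028-35108780) read 121.6, 89.5 and 106.3 untreated and lay at the floor in all LPS libraries, at least 25.7-fold lower (adjusted p = 4.23e-05). Region 4 (chr7:35110396-35114736) was at least 13.3-fold lower (adjusted p = 1.55e-04), from 76.4, 52.9 and 34.8. Region 1 (chr7:35091164-35094430) was at least 9.72-fold lower (adjusted p = 1.99e-04), from 36.0, 46.6 and 37.3. These 4 calls held under each alternative run for them, every left-out library included. No IL-10 library brought regions 1, 3 or 4 off the floor, and region 2 was above it in 1 of 6, at 30.6 in continuous IL-10 library 3.

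The start-site region of Cebpa varied between pools. This region 5 read 4009, 2214 and 5676 in untreated libraries and 1667, 1297 and 4053 with LPS, lower in each numbered pair but overlapping between groups. Its log2 change was -0.84 (SE 0.46, adjusted p = 0.172), and 0.00292 with the replicate block. It also passed without LPS library 3. Summed over all 5 regions, Cebpa gave -1.06 (SE 0.44, adjusted p = 0.0922). The gene passed with the replicate block (adjusted p = 4.47e-04), with median centring (0.0336), with DESeq2 on recovered reads (0.0243) and without LPS library 3 (0.00656). In IL-10 libraries the sum was 2615, 1890 and 3659 (continuous) and 2731, 2017 and 4341 (late). Against LPS the log2 changes of 0.34 (95% interval -0.60 to 1.29) and 0.48 (-0.47 to 1.42) did not pass.

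Cebpd encodes C/EBPδ, an inducible member of the family. Region 2 (chr16:15884585-15898365, which also overlaps the DNA repair gene Spidr) held 98.4% of the untreated sum, and the gene (chr16:15887286-15889545) lies inside it. The sum was 1019, 1021 and 2296 in untreated libraries, 671, 1390 and 1835 with LPS, 1384, 1249 and 1133 under continuous IL-10 and 1249, 2229 and 1352 under late IL-10. All groups overlapped. The log2 change with LPS was -0.16 (95% interval -1.03 to 0.71, adjusted p = 0.825), and against LPS it was 0.06 (-0.81 to 0.94) with continuous and 0.38 (-0.50 to 1.25) with late IL-10. Region 1, 7.07 kb away, was weak, between 12.1 and 116 over all libraries, and was not called in any comparison. Of the other C/EBP genes, Cebpe, Cebpg and Ddit3, 0 of 3 passed in any comparison by limma, and 1 (with LPS, lower) with the replicate block.

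Runx1 encodes the Runt factor that starts definitive haematopoiesis and partners PU.1 at myeloid enhancers. It had the most regions of the 9 genes, 19 over 211 kb, 13 of them over the gene (chr16:92601466-92826074, minus strand). The sum was 9581, 9035 and 15177 in untreated libraries and 5797, 6853 and 7582 with LPS, with no overlap. The log2 change was -0.71 (SE 0.22, adjusted p = 0.0275), lost without untreated library 3 (adjusted p = 0.104), LPS library 1 (0.112) or LPS library 2 (0.0572). Other settings ended the call as well: median centring (0.0512), edgeR on recovered reads (0.0748), regions within 20 kb only (0.0558) and the gene body only (0.101). Of the 17 regions tested, 6 fell (35.3%, against 17.9% of all regions) and 0 rose (against 16.5% of all regions).

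The distal start-site region of Runx1, whose promoter is printed above with its paired CCAAT letters, was among those that fell. This region 14 (chr16:92818794-92828135) read 1186, 1082 and 1417 in untreated libraries and 409, 447 and 376 with LPS, a log2 change of -1.57 (SE 0.27, adjusted p = 5.96e-04), and it kept this call under every alternative run. The proximal start-site region 6 (chr16:92690386-92720287) read 1692, 1620 and 3776 untreated and 850, 1306 and 2201 with LPS. Its log2 change was -0.69 (SE 0.38, adjusted p = 0.173, with the replicate block 0.0403), and it passed without LPS library 3. Whether the 2 start-site regions differ in their response was not tested. Region 1 (chr16:92564445-92582545), 18.9 kb past the 3′ end, fell from 890, 856 and 1448 to 401, 361 and 370 (log2 change -1.45, SE 0.37, adjusted p = 0.00844). Region 12 (chr16:92809700-92812969), inside the gene, fell by at least 6.52-fold in the group mean (adjusted p = 0.0197). It read 33.9, 5.04 and 41.5 untreated and 1.97, 5.04 and 0.46 with LPS, all LPS libraries at the floor. Library 2 hardly differed between the groups. The call was lost without untreated library 1 or 3 or LPS library 1 or 3 (adjusted p between 0.0577 and 0.0611). The 2 further regions called lower, both over the gene body, had log2 changes of -4.33 and -3.40. They fall outside the naming rule and were chosen after their values were seen. The call of the first was lost without untreated library 1 or 3 or LPS library 1 or 2 (adjusted p between 0.0565 and 0.126), and that of the second without any untreated library, LPS library 1 or 2 or late IL-10 library 2 (adjusted p between 0.0512 and 0.151).

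Region 17 of Runx1 (chr16:92859906-92876572), 33.8 kb upstream of the gene, was called with LPS and with late IL-10. It fell with LPS, and under late IL-10 it rose against LPS to values above every untreated library. It read 1407, 1535 and 1376 untreated, 775, 908 and 524 with LPS, 1150, 1228 and 1297 under continuous IL-10 and 2842, 2779 and 2104 under late IL-10. No group overlapped another. The log2 change with LPS was -1.003 (SE 0.26, adjusted p = 0.00884), and late IL-10 against LPS gave 1.83 (SE 0.26, adjusted p = 0.00137), both kept without any single library. Continuous IL-10 against LPS gave 0.77 (SE 0.26, adjusted p = 0.101, with the replicate block 0.0237). Late against continuous IL-10 gave 1.06 (SE 0.26, adjusted p = 0.0477). That last call was lost without the filter on low values (0.0517), with edgeR on recovered reads (0.0587) and without any one of 10 libraries, all but LPS library 3 and late IL-10 library 3 (adjusted p between 0.0502 and 0.204).

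Summed over the gene, Runx1 read 6783, 7516 and 8506 under continuous and 10267, 11168 and 9445 under late IL-10. The late libraries all lay above the LPS and the continuous ones, but the log2 changes of 0.62 (95% interval 0.14 to 1.09, adjusted p = 0.196) and 0.44 (-0.03 to 0.91, adjusted p = 0.322) did not pass limma's test. DESeq2 on recovered reads called both (0.71, adjusted p = 0.0105, and 0.57, adjusted p = 0.0486). The proximal start-site region 6 read 1467, 1387 and 1914 under continuous and 2210, 2919 and 2487 under late IL-10, a late change against LPS of 0.90 (SE 0.38, adjusted p = 0.308, with the replicate block 0.0484). The distal region 14 read 472, 516 and 638 and then 664, 624 and 647, a late change of 0.65 (SE 0.27, adjusted p = 0.291).

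**Figure D3:**
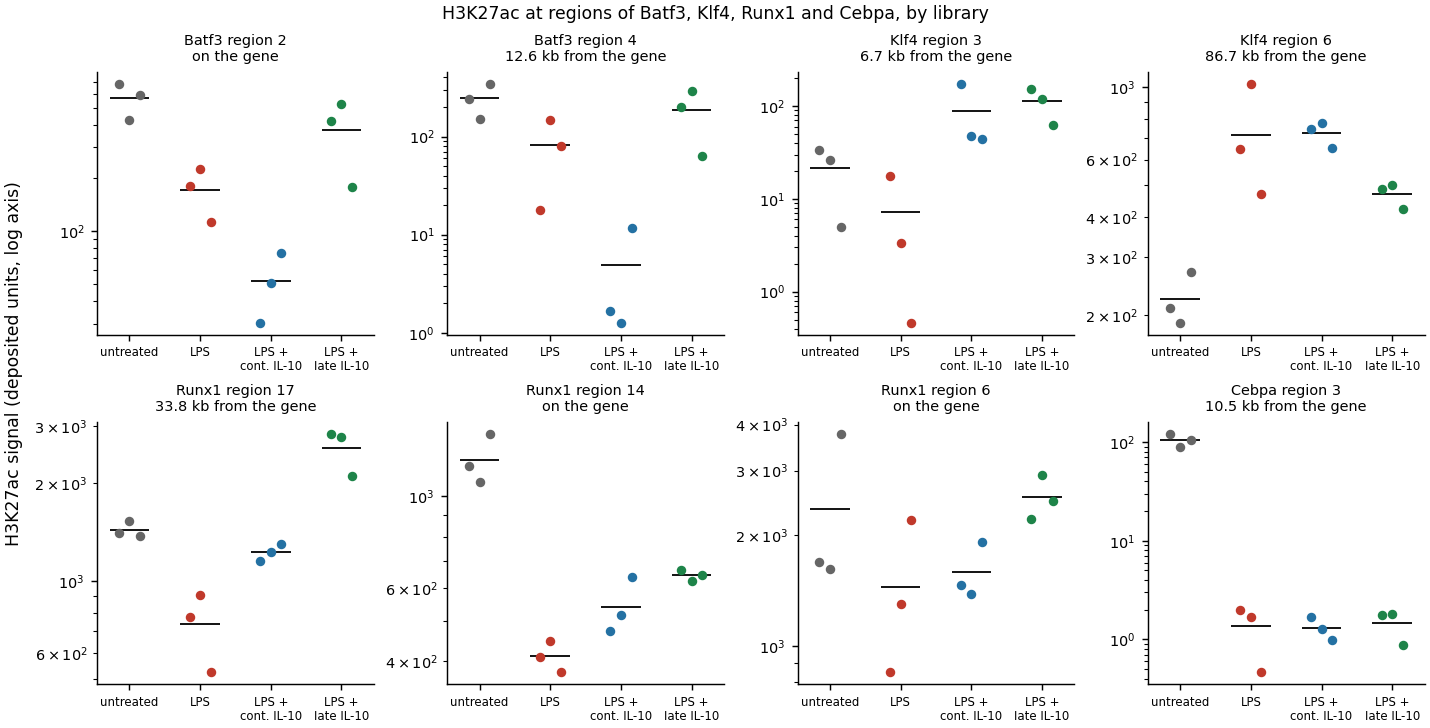
H3K27ac signal by library at 8 regions of Batf3, Klf4, Runx1 and Cebpa, in deposited units on log axes, with the group mean as a line. Runx1 region 17 lies between 524 and 908 with LPS and between 2104 and 2842 under late IL-10, and Cebpa region 3 lies at the floor of 1 read in all libraries but the untreated ones.

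Maf encodes c-Maf, a bZIP factor that drives Il10 and other genes of anti-inflammatory macrophages. Its gene (chr8:115703253-115706894) had 10 regions over 112 kb. Regions 1 to 5 lie at lower coordinates than the gene, where regions 1 to 3 overlap the non-coding gene Gm39256, region 6 overlaps the gene, and regions 7 to 10 lie at higher coordinates. LPS lowered the sum from 8385, 10118 and 7464 in untreated libraries to 5008, 6671 and 3497, with no overlap (log2 change -0.81, SE 0.27, adjusted p = 0.0413). This call was lost with median centring (adjusted p = 0.228), edgeR (0.281) and DESeq2 (0.277) on recovered reads. It was also lost without any one of 8 libraries, namely the 3 untreated ones, LPS libraries 1 and 3, continuous IL-10 libraries 1 and 2 and late IL-10 library 1 (adjusted p between 0.0512 and 0.144). With regions within 20 kb or over the gene only, the log2 change was 0.39.

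The called regions of Maf moved in opposite directions with LPS. Region 2 (chr8:115603573-115638645), 64.6 kb from the gene, read 3310, 3958 and 2698 untreated and 929, 1403 and 573 with LPS, a log2 change of -1.85 (SE 0.34, adjusted p = 0.00114) kept under every alternative run. Region 1 (chr8:115577413-115603570), 99.7 kb away, read 2083, 2730 and 1684 untreated and 868, 1358 and 437 with LPS (log2 change -1.40, SE 0.49, adjusted p = 0.0407). Its call was lost with median centring (0.0695), edgeR (0.0770) and DESeq2 (0.112), and without each untreated library, LPS library 1 or 3, or continuous IL-10 library 1 or 2 (adjusted p between 0.0510 and 0.126). Region 5 (chr8:115677487-115682486) read 92.6, 56.7 and 26.0 untreated and 1.97, 20.2 and 0.46 with LPS (log2 change -3.54, SE 0.95, adjusted p = 0.0112, with edgeR 0.0651). LPS libraries 1 and 3 were at 1 read there, so the size of its change depends on that floor. In the opposite direction, region 8 (chr8:115741839-115745742), 34.9 kb from the gene on the other side, rose from 19.8, 15.1 and 14.2 to 59.0, 72.3 and 65.4 (log2 change 1.95, SE 0.49, adjusted p = 0.00767), kept under every alternative run. Region 6 over the gene (chr8:115694843-115710908) read 1646, 1938 and 2064 untreated and 2434, 2996 and 2032 with LPS, a log2 change of 0.39 (95% interval -0.16 to 0.94, adjusted p = 0.264).

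Late IL-10 also gave calls on both sides of Maf. Region 2 read 321, 426 and 252 under late IL-10, below every LPS library (log2 change against LPS -1.48, SE 0.34, adjusted p = 0.0300) and below the continuous IL-10 libraries at 1101, 1537 and 1151 (-1.94, SE 0.34, adjusted p = 0.0145). The first call was lost without untreated library 1, LPS library 1 or 2, or late library 1 or 3 (adjusted p between 0.0558 and 0.126), and the second without continuous library 2 (0.0715) or late library 1 (0.0786). Region 3 (chr8:115640610-115658487) read 702, 815 and 377 with LPS and 123.3, 240 and 171 under late IL-10 (log2 change -1.80, SE 0.38, adjusted p = 0.0178), a call lost without LPS library 1 (0.0693) or 2 (0.0839) or late library 1 (0.0946). Region 1 read 136, 452 and 167 under late IL-10, which did not pass (-1.88, SE 0.49, adjusted p = 0.0553, with the replicate block 0.00121).

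On the other side of Maf, region 9 (chr8:115764183-115766233) lay at the floor in all untreated and LPS libraries. It read 21.9, 29.2 and 4.93 under continuous and 58.1, 66.3 and 15.9 under late IL-10. Late IL-10 was at least 11.4-fold above LPS (adjusted p = 0.0135), lost without late library 1 (0.0663) or 2 (0.0660). Continuous IL-10 was at least 4.54-fold above LPS (adjusted p = 0.0665, with the replicate block 0.0130). Region 8 read 165, 146 and 148 under continuous and 217, 240 and 192 under late IL-10, where each step from LPS had no overlap but late against LPS had an adjusted p of 0.0845 (log2 change 1.71, SE 0.49, with the replicate block 0.0253). Region 6 over the gene read 1882, 1729 and 1393 under continuous and 1655, 2229 and 1343 under late IL-10, with log2 changes against LPS of -0.57 (95% interval -1.12 to -0.02, adjusted p = 0.238) and -0.53 (-1.08 to 0.03, adjusted p = 0.433). Over the sum, Maf read 4558, 5117 and 3643 under continuous and 2541, 3662 and 2159 under late IL-10. The late change was -0.85 against LPS (SE 0.27, adjusted p = 0.143) and -0.69 against continuous IL-10 (SE 0.27, adjusted p = 0.200). With the replicate block these were called (adjusted p = 0.00460 and 0.0130), and the former also passed without LPS library 3 (-1.09, adjusted p = 0.0333).

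**Figure D4:**
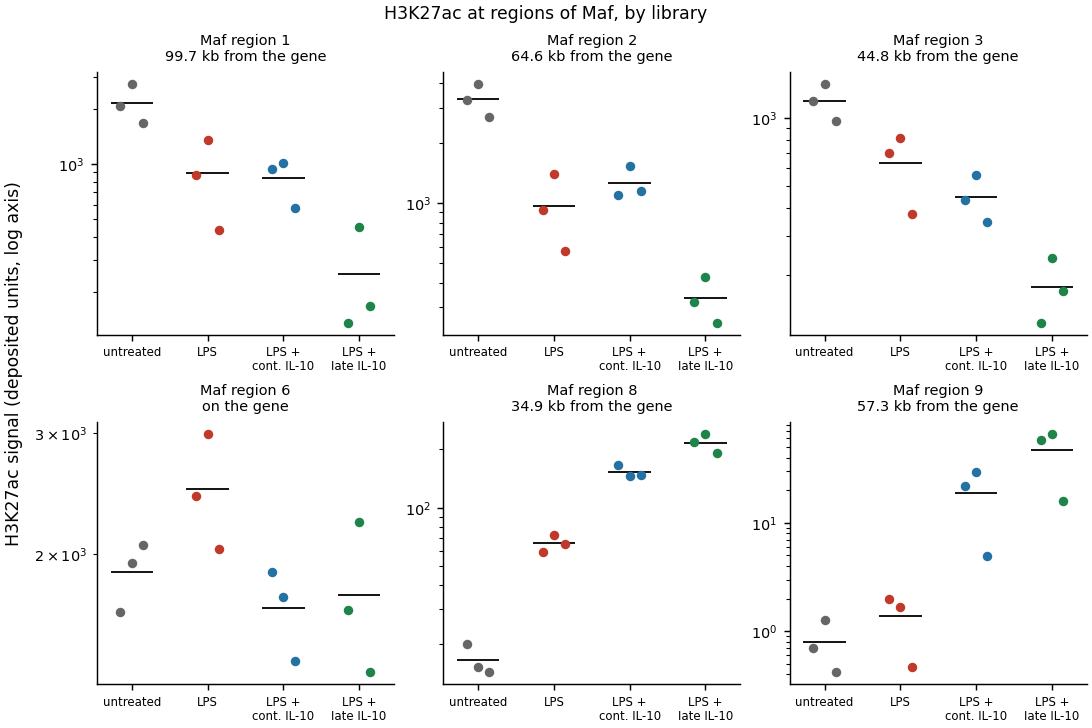
H3K27ac signal by library at 6 regions of Maf, in deposited units on log axes, with the group mean as a line. The means of regions 1 to 3 are lowest with late IL-10 (251.5, 333 and 178), while those of regions 8 and 9 are highest there, and at region 6 over the gene the LPS libraries overlap all groups but continuous IL-10.

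Klf4 encodes a Krüppel-like factor that promotes monocyte differentiation. Its gene (chr4:55527137-55532475, minus strand) lies within region 2, and 5 of its 7 regions lie upstream. LPS raised the most active upstream region, region 6 (chr4:55619175-55626328), 86.7 kb before the start, from 210, 189 and 271 to 647, 1023 and 469 (log2 change 1.61, SE 0.34, adjusted p = 0.00234), kept under every alternative run. The start-site region 2 (chr4:55529426-55535778) read 394, 361 and 941 untreated and 289, 260.5 and 681 with LPS, lower in each pair with overlapping groups (log2 change -0.46, 95% interval -1.50 to 0.58, adjusted p = 0.497). The sum was 693, 638 and 1351 untreated and 1049, 1383 and 1390 with LPS (log2 change 0.58, SE 0.29, adjusted p = 0.165). It passed with edgeR (0.0440) and DESeq2 (0.0177) on recovered reads and without untreated library 3 (0.0146). Restricted to 20 kb or to the gene body, the LPS change of Klf4 was -0.32 and -0.46.

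Region 3 of Klf4 (chr4:55539204-55542694), 6.73 kb upstream, was higher with both IL-10 schedules. It read 33.2, 26.5 and 5.02 untreated, 17.7, 3.36 and 0.46 with LPS, 172, 47.0 and 44.4 under continuous and 153, 120 and 62.9 under late IL-10. The IL-10 groups did not overlap the LPS libraries. LPS library 3 was at 1 read, the lowest value recorded, so the size of the changes depends on that floor. The log2 changes were 3.87 (SE 1.05, adjusted p = 0.0436) with continuous and 4.43 (SE 1.05, adjusted p = 0.0326) with late IL-10, and the 2 comparisons share the LPS libraries. Both were lost with edgeR on recovered reads (0.109 and 0.142). The continuous call was lost without any one of 9 libraries, all but untreated library 3, LPS library 1 and late library 3 (adjusted p between 0.0589 and 0.155). For the late call these were LPS library 2 or 3, continuous library 2 and late library 1 or 2 (adjusted p between 0.0514 and 0.138). Over the sum, Klf4 read 1389, 1237 and 1149 under continuous and 1034, 882 and 961 under late IL-10, with log2 changes against LPS of -0.01 (95% interval -0.64 to 0.62) and -0.40 (-1.03 to 0.23).

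Batf3 encodes a BATF factor required for cross-presenting dendritic cells and also made in macrophages. It was the only one of the 9 genes whose sum was called both with LPS and between the IL-10 schedules. The gene (chr1:191098414-191108943) had 5 regions. The sum was 1080, 672 and 1164 untreated, 238, 477 and 267 with LPS, 69.1, 59.7 and 157 under continuous IL-10 and 771, 1021 and 333 under late IL-10. LPS libraries lay below all untreated ones, and continuous IL-10 libraries below all others. The log2 change with LPS was -1.60 (SE 0.50, adjusted p = 0.0292), lost without untreated library 1 (0.0987) or 3 (0.0864) or LPS library 1 (0.107), and over the gene body only (0.0535).

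Continuous IL-10 against LPS gave a log2 change of -1.84 (SE 0.50, adjusted p = 0.0483) for Batf3. This call stood close to the threshold. It was lost with a pseudocount of 10 (0.0508), with no filter (0.0541), with median centring (0.0715), with edgeR on recovered reads (0.0608) and over the gene body only (0.0703). Leaving out any one of 9 libraries, all but LPS library 3, continuous library 3 and late library 3, ended it too (adjusted p between 0.0530 and 0.215). Late IL-10 exceeded continuous IL-10 by 2.87 (SE 0.50, adjusted p = 0.0172), higher in 3 of 3 pairs, lost without continuous library 2 (0.0823), late library 1 (0.127) or late library 2 (0.110). Late IL-10 against LPS gave 1.03 (95% interval -0.04 to 2.11, adjusted p = 0.443), with late library 3 inside the LPS range.

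The called regions of Batf3 lay over the 3′ end of the gene and downstream of it. Region 2 (chr1:191106808-191116426), over the 3′ end of the gene, read 677, 424 and 592 untreated, 179, 224 and 112 with LPS, 30.4, 50.8 and 74.9 under continuous and 421, 527 and 177 under late IL-10. The LPS change was -1.74 (SE 0.51, adjusted p = 0.0180), lost without untreated library 1 (0.0727). Late against continuous IL-10 gave 2.78 (SE 0.51, adjusted p = 0.0164), lost without continuous library 1 (0.0519) or 2 (0.0613) or late library 1 (0.0967) or 2 (0.0816). Continuous IL-10 against LPS was -1.74 (adjusted p = 0.0627, with the replicate block 0.0187). Region 3 (chr1:191117366-191120138) fell with LPS from 105, 89.5 and 111 to 13.8, 43.7 and 11.1 (log2 change -2.36, SE 0.77, adjusted p = 0.0298). Its call was lost with edgeR (0.0540) and without any untreated library or LPS library 1 or 3 (adjusted p between 0.0650 and 0.0885).

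Region 4 of Batf3 (chr1:191121581-191126777), 12.6 kb downstream, showed the widest gap between the IL-10 schedules among the 52 regions. It read 240, 151 and 341 untreated, 17.7, 148 and 80.2 with LPS, 1.69, 1.27 and 11.8 under continuous and 201, 292 and 63.8 under late IL-10. Continuous libraries 1 and 2 were at 1 read, the lowest value recorded, so the size of this gap depends on that floor and on the added 1. Continuous IL-10 against LPS gave -3.83 (SE 0.94, adjusted p = 0.0285), lost without LPS library 2 (0.129), continuous library 1 (0.0879) or 2 (0.105) and with a pseudocount of 10 (0.0603). Late against continuous IL-10 gave 5.19 (SE 0.94, adjusted p = 0.0151), lost without continuous library 2 (0.0663) or late library 1 (0.0885) or 2 (0.0778). The start-site region 1 (chr1:191095051-191099576), whose promoter is printed above, varied widely, at 29.7, 1.26 and 80.8 untreated, 9.84, 43.7 and 60.3 with LPS, 1.69, 1.27 and 40.4 under continuous and 116, 106 and 36.3 under late IL-10. It had no call. Its log2 changes were 0.80 (95% interval -2.23 to 3.83) with LPS, -2.29 (-5.32 to 0.74) for continuous IL-10 against LPS and 3.62 (0.59 to 6.65, adjusted p = 0.195) for late against continuous IL-10. Whether the regions of Batf3 differ in their change was not tested. Of the 5 dendritic cell markers, 1 was called higher with LPS (Zbtb46) and 2 lower (Flt3 and Siglech), and with continuous IL-10 against LPS 1 was called lower (Zbtb46), or 3 with the replicate block (Zbtb46, Xcr1 and Clec9a), with a list median of -0.95. Late IL-10 gave no call among the 5 against LPS. Zbtb46 read 185 ± 17.2 untreated, 463 ± 46.6 with LPS (adjusted p = 0.00850) and 161 ± 23.2 under continuous IL-10 (adjusted p = 0.0167). The IL-10 call of Zbtb46 was lost without LPS library 1 or 2 or continuous library 1 or 2 (adjusted p between 0.0556 and 0.0904). The part of dendritic cells in the Batf3 values was not tested.

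Zeb2 encodes a zinc finger repressor that maintains tissue macrophage and monocyte identity. Its gene (chr2:44983512-45117442, minus strand) had the highest covered length, 308 kb in 5 regions, and region 5 (chr2:45173088-45291545), 55.6 kb upstream and over the non-coding gene Vis1, held 65.5% of the untreated sum. The sum was not called in any comparison. It was 18553, 27877 and 17583 untreated, 26441, 42872 and 15782 with LPS, 38506, 34783 and 22264 under continuous and 25670, 43036 and 18282 under late IL-10. All groups overlapped, and the LPS change was 0.33 (95% interval -0.48 to 1.14). Library 3 was lowest in each of the 4 groups.

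Within Zeb2, LPS raised 2 regions. Region 1 (chr2:44947622-45064802), which spans the 3′ part of the gene, read 1649, 2607 and 718 untreated and 5413, 8774 and 2429 with LPS, higher in 3 of 3 pairs although untreated library 2 and LPS library 3 overlapped (log2 change 1.74, SE 0.53, adjusted p = 0.0225). Its call was lost without untreated library 3 (0.105), LPS library 1 (0.0707) or LPS library 2 (0.105). With IL-10 it read 9441, 7134 and 4585 (continuous) and 11009, 18467 and 6550 (late), the late change against LPS being 1.18 (SE 0.53, adjusted p = 0.377, with the replicate block 0.00502). Region 3 (chr2:45136002-45139894), 18.6 kb upstream, rose from 2.83, 1.26 and 0.42 to 17.7, 35.3 and 3.71 (log2 change 2.67, SE 0.91, adjusted p = 0.0364). This was lost with a pseudocount of 10 (0.0960) and without any untreated library or LPS library 1 or 2 (adjusted p between 0.0539 and 0.150). Untreated libraries 2 and 3 of this region were at 1 read, so the size of the change depends on that floor. Region 2 (chr2:45065433-45131821), which holds the 4 start sites, read 4804, 6244 and 6032 untreated and 8838, 13168 and 6651 with LPS, without overlap (log2 change 0.70, SE 0.27, adjusted p = 0.0631). It passed with the replicate block (0.00951), with median centring (0.0111) and without LPS library 3 (0.0145).

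The IL-10 comparisons gave few calls over the 52 regions. Continuous IL-10 against LPS gave 1 higher (1.92% against 3.28% of all regions) and 1 lower (1.92% against 3.24%). Late IL-10 against LPS gave 3 higher (5.77% against 3.14%) and 2 lower (3.85% against 0.396%). Late against continuous IL-10 gave 3 higher (5.77% against 1.86%) and 1 lower (1.92% against 0.852%). With the replicate block the counts were 3 and 2 for continuous IL-10, 7 and 3 for late IL-10, and 3 and 5 for late against continuous IL-10. The block also raised the shares over all regions, to 7.42% higher and 8.98% lower for continuous IL-10, 6.17% and 1.92% for late IL-10, and 8.02% and 4.96% for late against continuous IL-10. Over the 9 gene sums, only Batf3 was called in these comparisons by limma, lower with continuous IL-10 (3.17% of all genes were, and 2.59% were higher) and higher with late than with continuous IL-10 (1.88% of all genes were, and 0.668% were lower). The count over all genes in that last comparison rested on single libraries: without late library 1 or 2 it was 0 higher and 0 lower, and without continuous library 2 it was 6 and 1. Without late library 3 it was 634 and 366. For late IL-10 against LPS, 0 of 9 genes were called, against 3.19% of all genes higher and 0.26% lower. The unadjusted 95% intervals of Maf and Runx1 lay apart from 0, and how many of all genes did so was not counted. At an adjusted p under 0.05, DESeq2 called 2 of these 9 higher, and 681 of all 13482 genes. The replicate block called 1 of the 9 lower, against 3.01% of all genes. These comparisons share the LPS or the continuous IL-10 libraries.

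A list of 55 related factors put the 9 genes beside their families, with 52 of the 55 tested. With LPS 14 rose and 7 fell, where 14.2% of all genes rose and 13.3% fell, with a median log2 change of -0.10 against -0.11 over all genes. With the replicate block 15 rose and 17 fell, and of all genes 20.1% rose and 23.4% fell. In the ETS family, 4 of 12 tested genes rose and 1 fell. Ets2, a target of growth factor signalling, went from 396 ± 166 to 6180 ± 863 (log2 change 4.06, SE 0.30, adjusted p = 2.59e-06). Ets1 rose by 1.66, Etv5 by 1.42 and Etv6 by 1.09, while Fli1, a haematopoietic ETS factor, fell by 1.35 on the log2 scale (adjusted p = 3.31e-04). In the KLF family Klf3 (log2 change 2.17) and Klf7 (2.03) rose, 2 of 7. Batf2 (2.63) and Batf (1.84) rose, 2 of 3 in the BATF family, the opposite direction to Batf3. Zeb1, the paralogue of Zeb2, rose from 948 ± 554 to 5589 ± 2912 (log2 change 2.57, adjusted p = 0.00647). Runx2, 1 of 3 in the Runt list, fell by 0.64 on the log2 scale (adjusted p = 0.0367), lost without any one of 8 libraries (up to 0.104).

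Among other myeloid and progenitor factors, 5 of 19 rose and 4 fell with LPS. Gfi1, a repressor known from neutrophil development, lay at the floor in untreated libraries, and LPS brought it to 1361 ± 412, at least 285-fold higher (adjusted p = 7.42e-08). Myb, a progenitor factor, rose from 69.9 ± 29.5 to 1915 ± 588 (log2 change 4.81, adjusted p = 1.27e-05). Gata2 rose from 17.8 ± 15.3 to 178 ± 39.4 (3.89, adjusted p = 0.00555) and Ikzf1, which encodes Ikaros, from 3120 ± 399 to 13509 ± 6298 (2.02, adjusted p = 4.83e-04).

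With continuous IL-10 against LPS, 2 of the 52 related genes rose and 1 fell, against 2.59% and 3.17% of all genes. With the replicate block 11 rose and 3 fell, against 7.34% and 10.3% of all genes. Myb fell by 2.55 on the log2 scale (adjusted p = 0.00604) to 328 ± 105. Etv5 rose by 1.30 (adjusted p = 0.0139, lost without LPS library 1 or continuous library 2 or 3, up to 0.0709). With late IL-10 against LPS, 3 rose and 0 fell, against 3.19% and 0.26% of all genes, and with the replicate block 5 rose and 2 fell, against 6.72% and 3.01%. Etv3, an ETS repressor, rose from 3029 ± 484 to 11659 ± 3434 (log2 change 1.91, SE 0.23, adjusted p = 4.63e-04). Batf rose by 1.72 (adjusted p = 0.00735). Id2, an inhibitor of helix-loop-helix factors, rose by 1.12 (adjusted p = 0.0339, lost without any one of 6 libraries, up to 0.165). Etv3 was also the 1 gene called between late and continuous IL-10 (1.34, adjusted p = 0.0172, lost without continuous library 2 or 3 or late library 1 or 2, up to 0.114), where the replicate block called 9 higher and 5 lower, against 9.69% and 7.17% of all genes.

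The genes whose summed H3K27ac most resembled each member over the 12 libraries, by Pearson's r of log2 values, are given as a description. The libraries share 4 groups and, if the numbers pair them, 3 pools. They were Cct3 for Spi1 (r = 0.98), Tbc1d8 for Cebpa (0.983), Pou2f2 for Cebpb (0.984), Nedd8 for Cebpd (0.938), Otor for Maf (0.972), Psd4 for Runx1 (0.926), Ptpn23 for Klf4 (0.943), Efcab11 for Batf3 (0.953) and Evi2 for Zeb2 (0.963). The next were Tsacc, Acot11, Cd72, Mrps18c, Snrpb2, Bzw2, Esrra, Iqck and Evi2a, in the same order, with r between 0.918 and 0.980. Cct3 and Tsacc had the same r (0.9803), as had Evi2 and Evi2a (0.96346). Genes sharing a region with the member were left out, but the genes listed for a member may share regions with each other.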

How the data were processed

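H3K27ac ChIP-seq was measured in 12 libraries of bone marrow-derived macrophages, 3 in each of 4 groups. The tools named are Bowtie2, Trim Galore, DiffBind and MACS2, with the mm10 build, per the submitters' processing notes, which state no roles, versions or settings here. The deposited signal values of each library are multiples of a single step to within 0.0001 reads, and dividing by that step gave the reads of each region back. How the authors scaled them or subtracted input is not given in the sources used. Read totals are counts over the regions and not the sequencing depth.

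Because the values are scaled and not counts, limma 3.58.1 (R 4.3.3; trend and robust settings) was used instead of a count test, on log2(value + 1), over all 12 libraries with group as the only term. Adding 1 shrinks the log2 change of regions with low values. Regions and gene sums with a mean at or below the 10th percentile were left out, and p-values were adjusted by Benjamini-Hochberg over all regions or genes, with calls at 0.05. The main fit treats the 12 libraries as unpaired, so its p-values measure the spread between libraries within groups. Any difference shared by libraries of the same number stays in that spread, and only the replicate block takes it out. The script was tested on simulated data.

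Named were the 9 genes, their start-site region (for Spi1, Cebpd and Maf the regions over the gene), up to 4 called regions per gene and comparison by smallest p, up to 4 called genes per related list by size of change, and 2 similar genes per member. The members and lists were chosen with earlier results of these data known. Sequences are from RefSeq (GRCm38.p6).

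Over 12 same-numbered pairs, the correlations of the deviations from the group means were between 0.149 and 0.712. Pairs of unlike number ran from -0.584 to 0.370. The highest of these, continuous library 1 with late library 2, exceeded the values of continuous with late libraries at numbers 1 and 2 (0.258 and 0.149). It also exceeded LPS library 1 with continuous library 1 (0.339), but not LPS library 2 with late library 2 (0.541). For number 3 the same-numbered values were 0.571 to 0.712, and all pairs with other numbers were negative. Deviations from a group mean cancel out within the group. A positive same-numbered value thus pulls the pairs with other numbers down as a set, and the negative pairs are no separate evidence. Library 3 also had the most reads in every group. Pairing is thus not settled by these values for any of the numbers. The series' design text describes independent pools, and the replicate block takes the numbers to pair the samples. Alternatives were a pseudocount of 10, no filter, median centring, edgeR 4.0.16 and DESeq2 1.42.0 on recovered reads, the replicate block, leaving out each library, regions within 20 kb, and the gene body only. The settings of 20 kb and the gene body were fitted on gene sums only. The input library was not used.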

Additional observations from a re-analysis of the deposited data

How the results depend on the processing

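Of 111 single results (36 of genes and 75 of regions), 41 kept their direction and their side of the threshold under every alternative run, and 35 reversed under at least 1. The cause was not tested for any change. Fitted with the replicate block, which pairs libraries by number, 9 of these single results gained a call, each given beside its result. The block also moved counts of called regions: with LPS from 6 to 9 higher and from 15 to 21 lower, for continuous IL-10 from 1 to 3 higher and from 1 to 2 lower, for late IL-10 from 3 to 7 higher and from 2 to 3 lower, and for late against continuous IL-10 from 1 to 5 lower. Counts of called genes went from 3 to 4 lower with LPS, and from 0 to 1 lower for late IL-10 against LPS and against continuous IL-10. The block ended or reversed none of the 111 results and changed no other call among them.

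Single regions were not refitted for the settings of 20 kb and gene bodies. Their region counts keep the main calls of the regions within that distance, out of fewer than 52 regions, and show no call lost to processing. With LPS, the 6 regions higher became 3 over gene bodies only and 3 to 10 without 1 library, and the 15 lower became 5 and 9 to 15. The 2 genes higher became 1 with median centring and 0 to 3 without 1 library. The 3 genes lower became 1 with edgeR, 1 within 20 kb, 0 over gene bodies and 0 to 3 without 1 library. For continuous IL-10, the 1 region higher became 3 with median centring, 3 with DESeq2, 0 with edgeR, 0 over gene bodies and 0 to 2 without 1 library. The 1 region lower became 0 with a pseudocount of 10, 3 with DESeq2, 0 over gene bodies and 0 to 2. The 1 gene lower became 0 with a pseudocount of 10, no filter, median centring, edgeR or gene bodies, and 0 to 1. For late IL-10, the 3 regions higher became 1 within 20 kb, 0 over gene bodies and 1 to 4, and the 2 lower became 0, 0 and 0 to 3. No gene was called, but DESeq2 called 2 higher, and leaving out 1 library called 0 to 1 lower. For late against continuous IL-10, the 3 regions higher became 1 over gene bodies and 0 to 3. The 1 lower became 2 with median centring, 0 within 20 kb, 0 over gene bodies and 0 to 3. The 1 gene higher became 2 with DESeq2 and 0 to 1. Counts over all features moved with the setting as well. For continuous IL-10, 1201 of all 36621 regions were higher, or 1286 with median centring, 1867 with DESeq2 and 813 with edgeR. Lower were 1186, or 1310 with a pseudocount of 10 and 2764 with DESeq2. Of all 13482 genes, DESeq2 moved those higher from 430 to 681 for late IL-10 and from 254 to 904 for late against continuous IL-10. Whether the member counts moved more than these was not tested.

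Median centring moved the median log2 change of all regions with LPS from -0.06 to 0.19. It moved the share of higher calls among genes from 45.0% to 61.5% for continuous IL-10 and from 73.8% to 54.5% for late against continuous IL-10 (63.4% with edgeR). DESeq2 moved the share for late IL-10 against LPS from 92.5% to 81.5%.

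Reversals with LPS were Maf at 0.39 within 20 kb and 0.39 over the gene, Klf4 at -0.32 and -0.46, and Cebpd region 2 at 0.05 with median centring. Without 1 library, Cebpd ran from -0.47 to 0.26, Zeb2 from -0.03 to 0.69, Batf3 region 1 from -0.69 to 1.89 and Cebpd region 2 from -0.54 to 0.24. For continuous IL-10, median centring gave Klf4 0.04 and Spi1 region 1 0.03, edgeR gave Cebpd region 2 -0.14 and Zeb2 region 2 -0.06, and DESeq2 gave them -0.08 and -0.04. Without 1 library, Spi1 ran from -0.20 to 0.07, Cebpd from -0.35 to 0.37, Maf from -0.39 to 0.07, Klf4 from -0.14 to 0.06, Zeb2 from -0.12 to 0.60, Cebpd region 2 from -0.38 to 0.39, Klf4 region 2 from -0.38 to 0.31, Runx1 region 6 from -0.11 to 0.58, Spi1 region 1 from -0.20 to 0.07 and Zeb2 region 2 from -0.20 to 0.29. For late IL-10, Spi1 and its region 1 ran from -0.26 to 0.01, Cebpd from -0.04 to 0.69, Zeb2 from -0.31 to 0.41, Cebpd region 2 from -0.06 to 0.71, Klf4 region 2 from -0.64 to 0.05, Spi1 region 3 from -0.95 to 0.73 and Zeb2 region 2 from -0.34 to 0.16. For late against continuous IL-10, Spi1 was 0.01 with edgeR and 0.04 with DESeq2, and its region 1 was 0.00 with DESeq2. Maf was 0.03 within 20 kb and 0.04 over the gene, Zeb2 0.28 and 0.28, and median centring gave Cebpb region 2 -0.02 and Maf region 6 -0.07. Without 1 library, Cebpa ran from -0.16 to 0.39, its region 5 from -0.16 to 0.40, Zeb2 from -0.52 to 0.10, Klf4 region 2 from -0.48 to 0.07, Maf region 6 from -0.15 to 0.22, Spi1 region 2 from -1.51 to 0.18 and Zeb2 region 2 from -0.34 to 0.01.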
